A study of Mus musculus with 12 samples.

Results

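The Bcl2 family comprises the proteins that decide whether the outer membrane of the mitochondrion stays intact or is opened, the step that commits a cell to apoptosis. The transcripts of 10 mouse genes of the family, Mcl1, Bcl2, Bcl2l1, Bax, Bak1, Bcl2l11, Bbc3, Pmaip1, Bid and Bik, were examined out of 79655 assembled loci with a genome position. The family was chosen by a readout of these data, the low level of Mcl1 after differentiation relative to embryonic stem cells (ESCs), so the 2 comparisons with ESCs are given as a description and without p-values for these genes. The comparison of the day 3 fractions with each other was not used in that choice and was tested. Each gene was matched to 1 assembled locus, and 10 of 10 loci passed the filter on low expression (a mean above 0.1 FPKM, counts scaled by exon length and library total, in at least 1 group).

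The 12 poly(A) RNA libraries came from 1 mouse ESC line with the C57BL/6 background label, in which an EGFP cassette sits at the start site of the endogenous Eomes gene, so that all 3 groups carry the reporter allele. The ESC group (day 0) was grown on mouse embryonic fibroblast feeders in medium with serum and LIF. The Eo+ and Eo- groups were the GFP-positive and GFP-negative cells sorted at day 3 from embryoid bodies made in hanging drops of a serum medium for which no LIF is listed, and they passed a gate for live cells. There were 4 libraries per group, numbered 1, 2, 5 and 6, from separate differentiation sets of the same line, so the p-values measure the spread between sets and not between lines.

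Within the family, the pro-survival proteins (Mcl1, Bcl2 and Bcl-xL, the product of Bcl2l1) bind and hold back the pore-forming effectors Bax and Bak1. The BH3-only proteins (Bim from Bcl2l11, Puma from Bbc3, Noxa from Pmaip1, Bid and Bik) occupy the groove of the pro-survival proteins or activate the effectors directly. Pluripotent stem cells are known to be primed for apoptosis, and Mcl1, a protein with a short life, is among the pro-survival proteins on which they depend. Much of the control in this family is exerted on proteins, by cleavage, phosphorylation, degradation and movement to the mitochondrion, none of which RNA levels report.

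Counts assigned to loci ranged from 648413022 to 837308168 per library, and 3 counts corresponded to 0.00354 to 0.00467 CPM (counts scaled to a common library total, with TMM factors). The labels of the groups were matched by their markers. The summed level of 6 pluripotency markers was 2746 to 3564 CPM in ESC, 1272 to 1635 in Eo- and 453 to 800 in Eo+ libraries, and that of 6 mesendoderm markers was 92.1 to 288, 249 to 510 and 1716 to 2969 CPM. Markers of other cell types differed between the groups. The sum of 12 fibroblast markers was 133 to 357 CPM in ESC, 33.1 to 44.1 in Eo- and 43.3 to 85.9 in Eo+ libraries, and that of 4 visceral endoderm markers was 0.855 to 1.4, 1.02 to 9.52 and 3.91 to 77.1 CPM. The fibroblast sum was led by different genes in each group, with Col1a1 at 63.8 ± 27.0 CPM in ESC but 1.86 ± 0.544 in Eo- and 3.2 ± 1.42 in Eo+, Thy1 (21.3 ± 4.74 CPM) leading in Eo- and Fbln2 (26.0 ± 13.2 CPM) in Eo+. Lox and Col3a1 were under 1 CPM in every day 3 library. The 4 immune markers summed to 20.7 to 28.3, 8.51 to 11.2 and 6.02 to 8.51 CPM. Nearly all of that was Cd68 (24.6 ± 3.33, 9.13 ± 1.31 and 6.81 ± 1.11 CPM), while Ptprc, Tyrobp and Csf1r were each under 1 CPM in every library. Both primitive erythroid globins together were at most 0.0301 CPM in ESC but reached 89.6 CPM in replicate 1 of Eo-, while replicates 2, 5 and 6 of Eo- had 2.18 to 3.77 CPM and Eo+ libraries 0.106 to 7.66 CPM. No marker gene of these lists was at or under 3 counts in every library of a group. The part of these cells in the results below was not tested.

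The family did not shift as a block. In both day 3 fractions Mcl1 was at about the same low level, while Bcl2 and Pmaip1 were higher, and Bax and Bbc3 lower, than in ESCs. Between the fractions, Mcl1 and Bak1 were not called, and Eo+ cells had higher Bcl2, Bcl2l1 and Pmaip1 and lower Bax, Bcl2l11, Bbc3, Bid and Bik than Eo- cells. By role, 2 of 3 pro-survival members were higher in Eo+ than in Eo- and none lower, 1 of 2 effectors was lower, and 4 of 5 BH3-only members were lower and 1 higher (limma-voom, adjusted p at most 0.05).

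Of the 17922 loci tested, 23.0% were called higher and 24.6% lower in Eo+ than in Eo-, against 3 and 5 of the 10 members. The 4 libraries of each fraction did not overlap for 3 higher and 4 lower members, against 22.3% and 23.6% of all loci. In the comparisons with ESC the counts contain Mcl1, on which the family was chosen, and nothing is read from them. In Eo+ compared with ESC, 3 members were called higher and 5 lower (35.8% and 36.1% of all loci), and 3 and 4 did not overlap (32.2% and 32.3%). In Eo- compared with ESC, 4 were called higher and 3 lower (30.9% and 31.3% of all loci), and 4 and 3 did not overlap (27.6% and 28.2%). The median log2 fold change of the 10 members was -0.23 in Eo+ against ESC, -0.01 in Eo- against ESC and -0.19 in Eo+ against Eo-, beside 0.00, 0.02 and -0.01 over all loci. The comparisons with ESC share the ESC libraries. In bulk RNA, fewer cells that use a gene and less RNA of it per cell cannot be told apart.

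**Figure D1:**
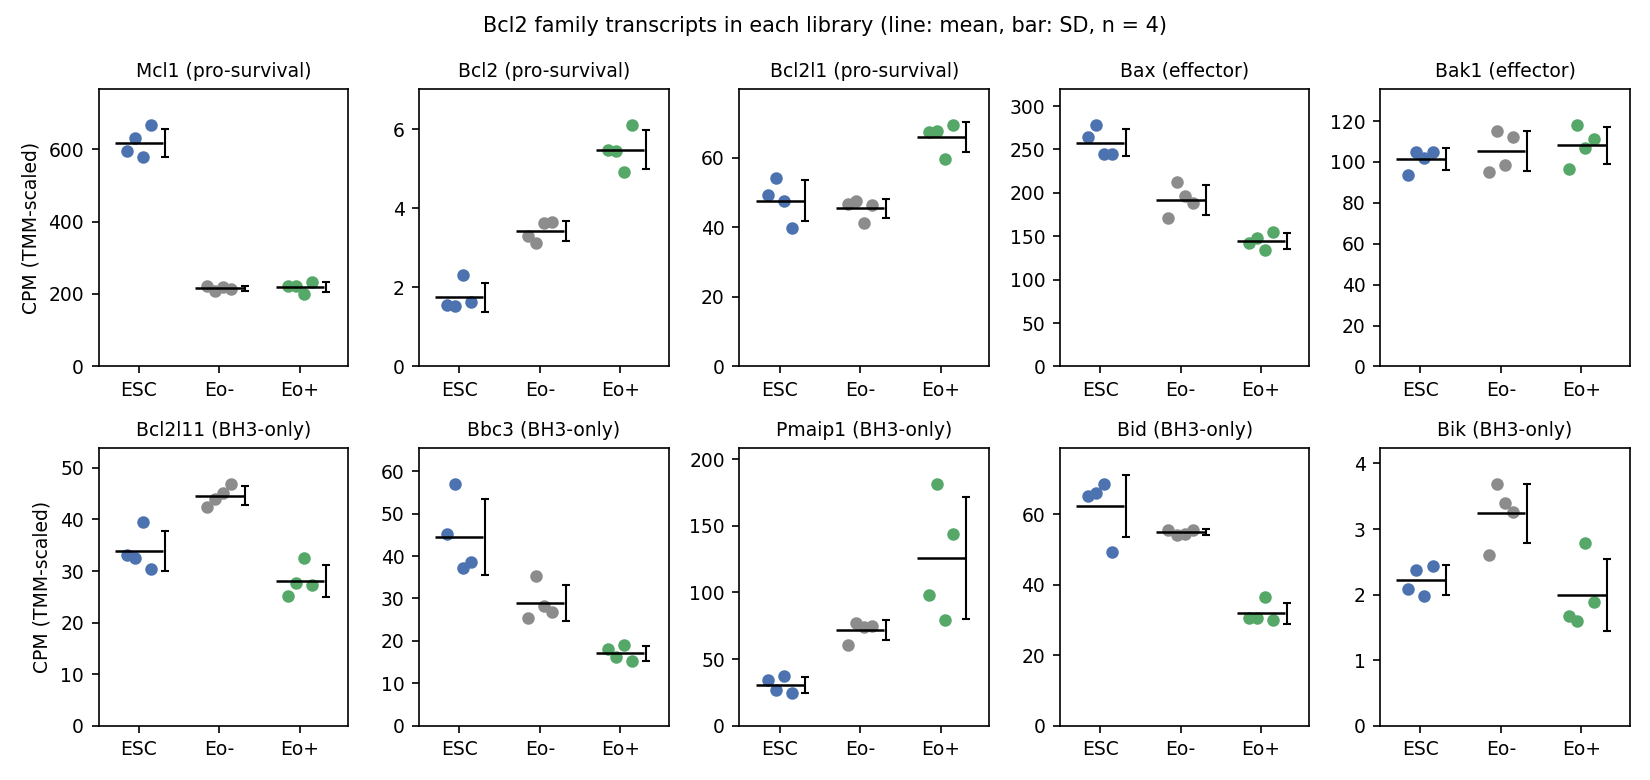
Level of each family member in CPM (y axis, linear from 0, scaled per gene) in the 4 libraries of ESC, Eo- and Eo+ (points; line, mean; bar, SD). Mcl1 stood at 579 to 666 CPM in ESC and at 200 to 234 CPM in both day 3 fractions, whereas Bax and Bbc3 were lowest and Bcl2 and Pmaip1 highest in Eo+.

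Mcl1 (XLOC_044358, mm10 chromosome 3, 95658721 to 95663176, plus strand, up to 4 exons) encodes the short-lived pro-survival protein of the family. It was at 594, 630, 579 and 666 CPM in ESC replicates 1, 2, 5 and 6. In Eo- it was at 221, 208, 220 and 213 CPM, and in Eo+ at 221, 223, 200 and 234 CPM. Every ESC library was above every day 3 library, and the 2 fractions overlapped. Its level was 2.86-fold lower in Eo- and 2.81-fold lower in Eo+ than in ESC (log2 fold change -1.52 ± 0.06 and -1.49 ± 0.06, SE). No difference was called between the fractions (log2 fold change 0.02 ± 0.06, limma adjusted p = 0.779), with a 95% interval from -0.11 to 0.16. Within a group the libraries were close, with a coefficient of variation of 6.29% in ESC, 2.82% in Eo- and 6.5% in Eo+. Among ESC libraries the highest Mcl1 level was in replicate 6, which had the lowest fibroblast marker sum (133 CPM), and replicate 1, with the highest sum (357 CPM), had 594 CPM of Mcl1.

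Bcl2 (XLOC_003965, chromosome 1, 106538146 to 106714422, minus strand), the founding pro-survival gene of the family, was scarce in all groups. Its level was 1.55, 1.53, 2.30 and 1.62 CPM in ESC, 3.31, 3.13, 3.62 and 3.65 CPM in Eo-, and 5.47, 5.44, 4.91 and 6.10 CPM in Eo+. The 3 groups did not overlap and followed each other in the order ESC, Eo-, Eo+. Bcl2 was 1.98-fold higher in Eo- and 3.16-fold higher in Eo+ than in ESC. The fractions differed by 1.6-fold (log2 fold change 0.67 ± 0.14, limma adjusted p = 0.00112), with Eo+ the higher in 4 of 4 differentiation sets.

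Bcl2l1 (XLOC_042433, chromosome 2, 152780623 to 152831733, minus strand) encodes Bcl-xL, and a splice form of the same gene, Bcl-xS, promotes death. Counts per locus do not tell these forms apart. Bcl2l1 was at 49.3, 54.2, 47.5 and 39.8 CPM in ESC, 46.7, 47.5, 41.3 and 46.3 CPM in Eo-, and 67.5, 67.6, 59.8 and 69.4 CPM in Eo+. Each Eo+ library was above all others, while ESC and Eo- overlapped (log2 fold change -0.07, not called). Its level was 1.45-fold higher in Eo+ than in Eo- (log2 fold change 0.54 ± 0.09, limma adjusted p = 0.000264) and 1.39-fold higher than in ESC.

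Among the effectors, Bax (XLOC_064606, chromosome 7, 45461695 to 45466898, minus strand) moves from the cytosol to the mitochondrion, where it forms pores. It was at 264, 278, 245 and 245 CPM in ESC, 171, 213, 196 and 188 CPM in Eo-, and 142, 148, 134 and 155 CPM in Eo+. The 3 groups did not overlap. Bax was 1.35-fold lower in Eo- and 1.78-fold lower in Eo+ than in ESC, and 1.32-fold lower in Eo+ than in Eo- (log2 fold change -0.40 ± 0.08, limma adjusted p = 0.000684).

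Bak1 (XLOC_031611, chromosome 17, 27019810 to 27029491, minus strand), the effector that resides in the mitochondrial membrane, did not follow Bax. Its level was 93.6, 105, 102 and 105 CPM in ESC, 95.3, 115, 98.5 and 112 CPM in Eo-, and 96.4, 118, 107 and 111 CPM in Eo+, and all 3 groups overlapped. Bak1 was called in no comparison, and its log2 fold change between the fractions was 0.04 (limma adjusted p = 0.707, 95% interval -0.13 to 0.21). The locus lies within that of Ggnbp1 and Zbtb9 on the opposite strand, which strand-aware counting kept apart and which had 33.3 to 35.3 CPM as group means. The ratio of Bax to Bak1 in FPKM was 8.48 ± 0.762 (SD, n = 4) in ESC, 6.07 ± 0.44 in Eo- and 4.47 ± 0.373 in Eo+.

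Promoter windows of 300 bases (250 before and 50 after the start) were found in RefSeq for 8 of the 10 members (build GRCm38.p6), with none for Pmaip1 and Bik used here. Where a gene had several windows, the one nearest an assembled 5′ end was taken. The 250 upstream bases of 4 members are printed 5′ to 3′ on the strand of the gene, because Mcl1 and Bcl2 changed in opposite directions and because Bax and the BH3-only gene Bbc3 were both lower in each day 3 fraction. They are chr3:95658471-95658720 (plus strand) for Mcl1, chr1:106714291-106714540 (minus) for Bcl2, chr7:45466899-45467148 (minus) for Bax and chr7:16310181-16310430 (plus) for Bbc3. Capitals mark matches on either strand to the GC box GGGCGG, the CCAAT box CCAAT and the E-box CACGTG, of which neighbouring GC boxes overlap in Bbc3.
Mcl1: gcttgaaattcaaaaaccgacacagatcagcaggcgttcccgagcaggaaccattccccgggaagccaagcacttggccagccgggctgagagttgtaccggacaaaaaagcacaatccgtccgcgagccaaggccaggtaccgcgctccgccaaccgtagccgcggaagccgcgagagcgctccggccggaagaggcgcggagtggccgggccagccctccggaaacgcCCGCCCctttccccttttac
Bcl2: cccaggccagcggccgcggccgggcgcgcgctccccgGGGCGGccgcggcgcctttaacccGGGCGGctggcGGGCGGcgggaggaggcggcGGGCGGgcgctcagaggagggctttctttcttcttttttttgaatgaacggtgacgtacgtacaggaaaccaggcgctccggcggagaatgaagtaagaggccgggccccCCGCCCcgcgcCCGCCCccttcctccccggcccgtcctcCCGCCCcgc
Bax: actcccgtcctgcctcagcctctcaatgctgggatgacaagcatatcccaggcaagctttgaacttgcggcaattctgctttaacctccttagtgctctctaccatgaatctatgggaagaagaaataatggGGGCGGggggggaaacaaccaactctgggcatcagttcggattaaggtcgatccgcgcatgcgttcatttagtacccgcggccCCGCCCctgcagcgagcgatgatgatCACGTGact
Bbc3: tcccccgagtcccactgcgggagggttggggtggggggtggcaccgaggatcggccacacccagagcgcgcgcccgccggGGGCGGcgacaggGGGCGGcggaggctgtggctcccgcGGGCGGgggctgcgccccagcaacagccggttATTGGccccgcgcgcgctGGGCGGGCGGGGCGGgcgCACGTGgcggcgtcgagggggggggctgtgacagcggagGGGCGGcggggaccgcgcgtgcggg
The windows differed in base composition: 65.7% G and C for Mcl1, 76% for Bcl2, 57.3% for Bax and 78% for Bbc3, beside a median of 52.7% over all windows. The GC box was matched 1 time in the 300 bases of Mcl1, 7 times in Bcl2, 3 in Bax and 7 in Bbc3, and 35.7% of the 32851 windows searched held at least 1. An E-box was matched 2 times in Bax and 1 time in Bbc3 (7.15% of windows), and a CCAAT box 1 time in Bbc3 (37.4%). The motifs TTCNNNGAA (STAT, 8.3% of windows) and GTAAACA (FOXO, 3.65%) were not matched in these 4 windows, while GTAAACA was matched 1 time in that of Bcl2l11. The 10-base motif of p53, not in capitals, was matched 1 time in Bax and in none of the other 7 windows (8.36% of windows). These matches describe letters and not binding.

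Bbc3 (XLOC_061129, chromosome 7, 16308355 to 16318211, plus strand) encodes Puma, a BH3-only protein that binds all pro-survival members and is a textbook target of p53. It was at 45.1, 56.9, 37.3 and 38.5 CPM in ESC, 25.5, 35.2, 28.2 and 26.8 CPM in Eo-, and 18.0, 16.1, 19.0 and 15.2 CPM in Eo+. As for Bax, the groups did not overlap and were ordered ESC, Eo-, Eo+ from high to low. Bbc3 was 1.53-fold lower in Eo- and 2.57-fold lower in Eo+ than in ESC. The fractions differed by a log2 fold change of -0.75 ± 0.15 (limma adjusted p = 0.00128).

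Bid (XLOC_060283, chromosome 6, 120891930 to 120916853, minus strand) links death receptors to mitochondria once caspase-8 has cleaved its protein. It was at 65.2, 66.2, 68.5 and 49.2 CPM in ESC, 55.6, 54.1, 54.3 and 55.6 CPM in Eo-, and 30.5, 30.5, 36.4 and 30.1 CPM in Eo+. The low level was therefore found in the Eo+ fraction, whose libraries lay below all others, while ESC and Eo- overlapped. Bid was 1.73-fold lower in Eo+ than in Eo- (log2 fold change -0.79 ± 0.10, limma adjusted p = 4.24e-05) and 1.95-fold lower than in ESC. Eo- and ESC differed by a log2 fold change of -0.17, which was not called, but was called at -0.28 without ESC replicate 6. The 3′ end of Bid overlaps that of its family relative Bcl2l13 on the other strand, whose level ran the other way, from 62.1 ± 0.573 CPM in ESC to 82.3 ± 2.78 in Eo- and 97.4 ± 6.96 in Eo+.

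Pmaip1 (XLOC_033596, chromosome 18, 66458604 to 66465550, plus strand) encodes Noxa, the BH3-only protein that binds Mcl1 with preference and promotes its degradation. It was at 34.6, 26.9, 37.1 and 24.5 CPM in ESC, 60.3, 76.9, 74.2 and 74.5 CPM in Eo-, and 98.3, 181, 79.2 and 144 CPM in Eo+. The groups did not overlap, but Eo+ libraries were widely spread, with a coefficient of variation of 36.4%, and the lowest of them stood just above the highest Eo- library. Pmaip1 was 2.33-fold higher in Eo- and 3.91-fold higher in Eo+ than in ESC, and 1.68-fold higher in Eo+ than in Eo- (log2 fold change 0.74 ± 0.21, limma adjusted p = 0.0104). It was the only BH3-only member called higher in Eo+ than in Eo-. Eo+ replicates 2 and 6, which had the most Pmaip1, also had the highest sums of mesendoderm markers (2969 and 2555 CPM, against 1716 and 1801 CPM in replicates 1 and 5). The visceral endoderm sum split these libraries the other way, at 3.91 and 15.7 CPM in replicates 2 and 6 and 77.1 and 38.5 CPM in replicates 1 and 5. The part of either in the result was not tested. An unannotated locus on the opposite strand at its 3′ end had 0.0426, 0.111 and 0.185 CPM as means of ESC, Eo- and Eo+.

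Bcl2l11 and Bik were both highest in Eo-. Bcl2l11, the gene of Bim, which binds all pro-survival members, was counted as part of a locus (XLOC_039014, chromosome 2, 127838686 to 128162584, plus strand) that also holds the neighbouring gene Acoxl, so its counts cannot be split from those of Acoxl. The locus was at 33.2, 32.6, 39.5 and 30.4 CPM in ESC, 42.5, 44.0, 45.2 and 46.8 CPM in Eo-, and 25.1, 27.6, 32.5 and 27.3 CPM in Eo+. Every Eo- library was above every library of the other groups. The level was 1.59-fold lower in Eo+ than in Eo- (log2 fold change -0.67 ± 0.09, limma adjusted p = 6.68e-05), and relative to ESC it was 1.32-fold higher in Eo- and 1.21-fold lower in Eo+. The latter call was not made without ESC replicate 5, Eo+ replicate 1 or Eo+ replicate 6 (log2 fold changes -0.20, -0.21 and -0.25), and ESC and Eo+ libraries overlapped.

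Bik (XLOC_025116, chromosome 15, 83526793 to 83544647, plus strand), a BH3-only protein of the endoplasmic reticulum, was at 2.08, 2.38, 1.98 and 2.44 CPM in ESC, 2.61, 3.68, 3.40 and 3.26 CPM in Eo-, and 1.68, 1.60, 2.79 and 1.88 CPM in Eo+. Eo- had the highest mean, although 1 Eo+ library exceeded the lowest Eo- library. Bik was 1.66-fold lower in Eo+ than in Eo- (log2 fold change -0.73 ± 0.18, limma adjusted p = 0.0049) and lower in 4 of 4 differentiation sets. Against ESC it was 1.45-fold higher in Eo-, a call that was not made without Eo- replicate 2, and not called in Eo+ (log2 fold change -0.19).

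**Figure D2:**
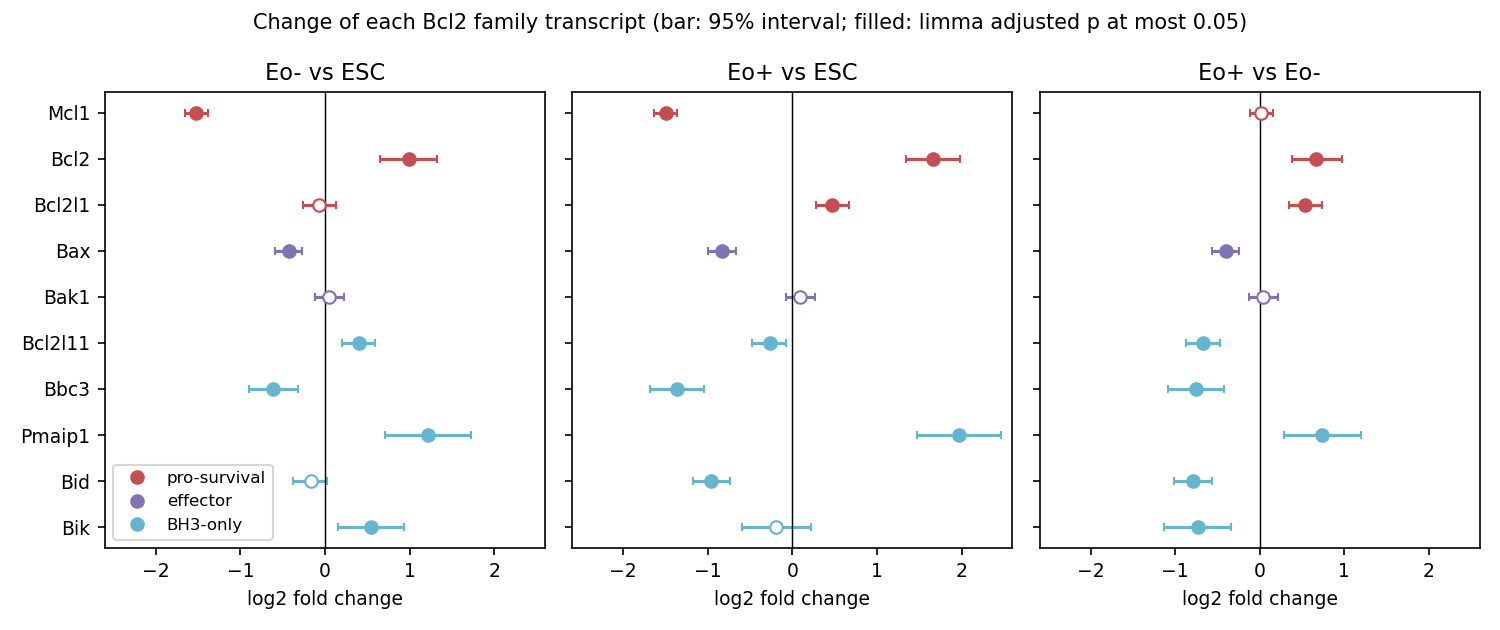
Log2 fold change (x axis) of the 10 members in Eo- against ESC, Eo+ against ESC and Eo+ against Eo-, coloured by role (bars, 95% interval; filled points, limma adjusted p at most 0.05; the ESC comparisons contain the choice of the family). Between the fractions Mcl1 and Bak1 lie at 0.02 and 0.04, Bcl2, Bcl2l1 and Pmaip1 to the right of 0 and the other 5 members to the left.

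Levels of different genes were compared per length of exon, in FPKM. Among the 3 pro-survival members, Mcl1 was the most abundant in all groups, with a smaller share after differentiation. Mcl1 made up 94.4 ± 0.825% (SD, n = 4) of the summed FPKM of the 3 pro-survival members in ESC, 85.9 ± 0.938% in Eo- and 80.9 ± 0.189% in Eo+. The share of Bcl2l1 was 5.51 ± 0.818%, 13.6 ± 0.957% and 18.3 ± 0.207%, and that of Bcl2 remained below 0.79%. No library of 1 group overlapped another group in the share of Mcl1. These shares leave out the pro-survival relative Bcl2l2, whose locus also holds Pabpn1 and had 53 ± 5.51, 53.2 ± 5.14 and 47.0 ± 4.05 FPKM in ESC, Eo- and Eo+. The sum itself was 188 ± 10.6 FPKM in ESC, 72 ± 1.51 in Eo- and 77.8 ± 5.04 in Eo+.

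On the pro-death side, Bax was the most abundant transcript throughout, with 78.3 ± 0.934% of the summed FPKM of the 7 members in ESC, 70.1 ± 0.914% in Eo- and 62.0 ± 3.27% in Eo+. Pmaip1 took 3.08 ± 0.636%, 8.58 ± 0.401% and 17.2 ± 4.67%, and Bbc3 3.35 ± 0.485%, 2.64 ± 0.2% and 1.85 ± 0.367%. With the exon length of annotated transcripts alone, the shares of Bbc3 became 5.56%, 4.37% and 3.07%. The ratio of Pmaip1 to Bbc3 was 0.942 ± 0.289 in ESC, 3.27 ± 0.348 in Eo- and 9.94 ± 4.35 in Eo+, while the 5 BH3-only transcripts summed to 46.9 ± 5.26, 57.7 ± 4.14 and 65.6 ± 15.8 FPKM. With annotated exon length, an alternative added after seeing the data, the ratio was 0.544 ± 0.167, 1.89 ± 0.201 and 5.74 ± 2.51.

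Set against each other, the 7 pro-death transcripts summed to 2.02 ± 0.16 times the 3 pro-survival ones in ESC, 4.38 ± 0.462 times in Eo- and 3.47 ± 0.228 times in Eo+. The ratio was 1.79 to 2.13 in ESC libraries, 3.81 to 4.94 in Eo- and 3.2 to 3.76 in Eo+, so the groups did not overlap. The pro-death sum was lower at day 3 than in ESC (379 ± 21.6 FPKM in ESC, 315 ± 26.9 in Eo- and 270 ± 26.7 in Eo+), and the pro-survival sum, which is mostly Mcl1, was lower by more. The BH3-only to pro-survival ratio was 0.252 ± 0.0382 in ESC, 0.803 ± 0.0733 in Eo- and 0.84 ± 0.176 in Eo+. These ratios contain the fall of Mcl1 on which the family was selected, are ratios of RNA and not of protein, and were not tested.

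**Figure D3:**
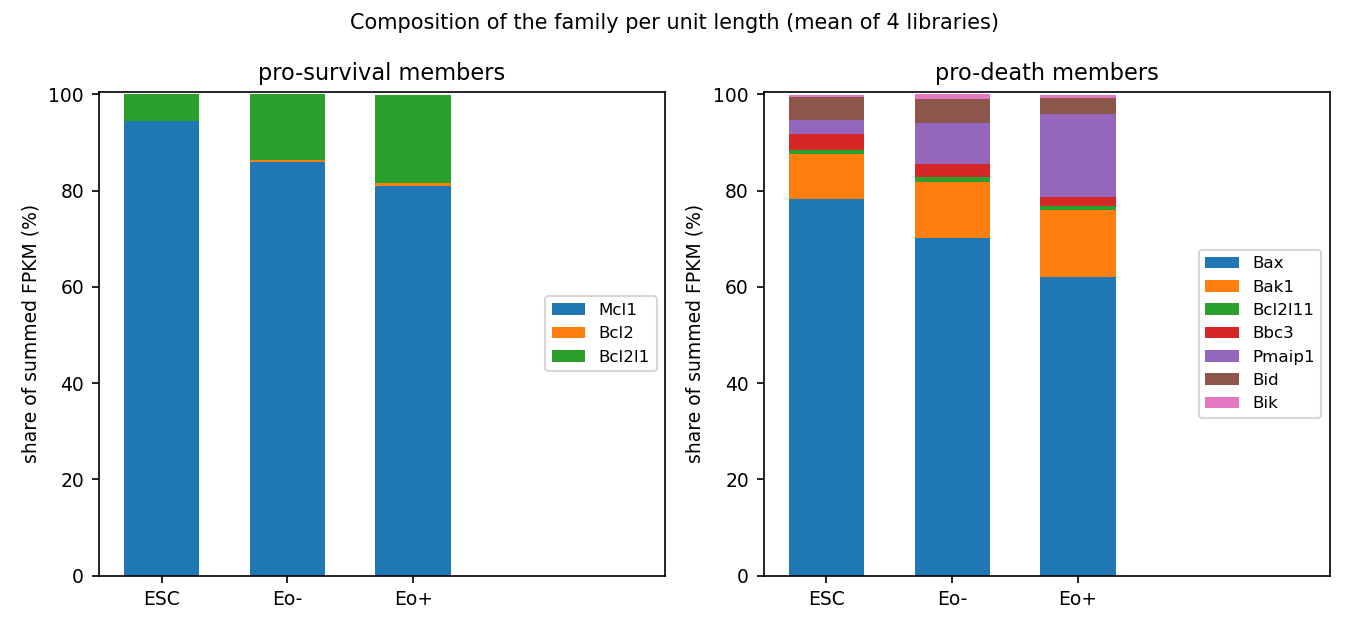
Share of each member in the summed FPKM (y axis, percent) of the 3 pro-survival members (left) and the 7 pro-death members (right), as means of 4 libraries per group. The Mcl1 share was 94.4% in ESC, 85.9% in Eo- and 80.9% in Eo+, and the Pmaip1 share 3.08%, 8.58% and 17.2%.

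The order of the levels changed below the first and second place. Bax (297 ± 18.4 FPKM) and Mcl1 (177 ± 11.1 FPKM) led in ESC, above 99% and 98.3% of protein-coding loci, followed by Bak1 at 35.1 ± 1.86 FPKM. Bid, Bbc3, Pmaip1 and Bcl2l1 came next at 17.5, 12.8, 11.6 and 10.3 FPKM, and each overlapped its neighbour in this order. With annotated exon length Bbc3 came above Bid in ESC (5.56% against 4.43% of the pro-death sum). In Eo+ Bax was at 167 ± 10.2 FPKM, and Mcl1 (62.9 ± 4.09 FPKM), Pmaip1 (47.4 ± 17.2 FPKM) and Bak1 (37.5 ± 3.16 FPKM) followed, with overlap between these neighbours. In Eo- the order after Bax (221 ± 20.4 FPKM) was Mcl1 (61.8 ± 1.75), Bak1 (36.4 ± 3.4) and Pmaip1 (27.0 ± 2.85), without overlap. Bcl2 was last in all groups, at 0.187 ± 0.0394 FPKM in ESC, 0.367 ± 0.0272 in Eo- and 0.587 ± 0.052 in Eo+.

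The other genes of the pathway were read from lists compiled with earlier results of these data known. Of 13 genes of the p53 network, which controls Bax, Bbc3 and Pmaip1 in other settings, 13 were called lower in Eo+ and 12 in Eo- than in ESC, with medians of -0.65 and -0.68, while 36.1% and 31.3% of all loci were called lower. Plk2, a kinase, was at 69.5 ± 13.4 CPM in ESC, 18.7 ± 5.93 in Eo- and 16.5 ± 4.32 in Eo+. Mdm2, the ligase that degrades p53, was at 162 ± 21.1, 65.3 ± 6.97 and 61.7 ± 5.0 CPM. Sesn2, a stress-induced inhibitor of growth signalling, was at 166 ± 28.0, 76.3 ± 7.46 and 50 ± 5.52 CPM, and Cdkn1a, the cell cycle inhibitor p21, at 97.4 ± 15.9, 57.7 ± 12.2 and 35.4 ± 8.04 CPM. The fibroblast marker sum was also lower at day 3, and among ESC replicates 1, 2, 5 and 6 it was 357, 154, 272 and 133 CPM. Of the 13 genes, 11 had their lowest ESC level in replicate 6, the library with the lowest fibroblast sum, among them Plk2 at 76.6, 72.7, 78.8 and 49.8 CPM, while Mdm4 and Sesn2 were lowest in replicate 5. Replicate 2, with the next lowest sum (154 CPM), had the highest ESC level of Trp53 (612 CPM), Mdm4, Sesn2, Phlda3 and Aen. The other genes of the list were highest in replicate 1 or 5. The part of fibroblasts in the levels of this list was not tested.

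Between the fractions, 4 genes of the p53 list were lower in Eo+ than in Eo- and 1 was higher (median -0.17), beside 24.6% and 23.0% of all loci. Phlda3 fell by 0.77 ± 0.14 on the log2 scale (limma adjusted p = 0.000596), Sesn2 by 0.61 ± 0.13 (0.0017), Zmat3 by 0.28 ± 0.09 (0.0199) and Cdkn1a, named after its values were seen, by 0.70 ± 0.19 (0.00746, with overlapping libraries). Perp, which encodes a protein of cell junctions, was 0.74 ± 0.20 higher (0.00791). Pmaip1 rose beside this list while Bax and Bbc3 fell. Trp53 itself was not called between the fractions. With a replicate block, which pairs Eo- and Eo+ libraries, in the fractions alone, Aen was also called lower (-0.17).

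The caspase cascade and its inhibitors had 10 of 19 genes called higher and 2 lower than in ESC in either fraction. Over all loci the shares were 35.8% and 36.1% in Eo+ and 30.9% and 31.3% in Eo-. Across the other settings the counts in Eo+ were 9 to 11 higher and 1 to 4 lower. In Eo- they were 7 to 10 and 1 to 3. Only 1 was lower in Eo+ without ESC replicate 5, Eo+ replicate 1 or Eo+ replicate 5, or with no filter on low values. The executioner Casp6 was at 7.36 ± 0.726 CPM in ESC, 21.6 ± 1.49 in Eo- and 28.0 ± 1.17 in Eo+. Casp8, the initiator that cleaves Bid, was at 3.97 ± 1.09, 10.6 ± 1.1 and 14.9 ± 3.4 CPM, and Casp9, the initiator of the mitochondrial route, at 20.4 ± 3.08, 34.3 ± 1.77 and 46.0 ± 4.05 CPM. Birc5 (survivin) was among the lower genes in both fractions, at 215 ± 12.3, 167 ± 14.2 and 187 ± 5.89 CPM. Between the fractions 5 genes were higher in Eo+ and none lower by limma, beside 23.0% and 24.6% of all loci. With the replicate block, which pairs Eo- and Eo+ libraries, 7 were higher and 1 lower. With the block in the fractions alone the counts were 8 and 2. The lower genes were Endog (-0.32) and, in the second fit, also Casp2 (-0.17), whose locus also holds Tmem139. The unpaired alternatives gave 4 to 7 higher and 0 to 1 lower. The 5 genes were the caspase inhibitors Birc3 (log2 fold change 0.70 ± 0.14, limma adjusted p = 0.000876) and Xiap (0.68 ± 0.13, 0.000819), Casp9 (0.42 ± 0.10, 0.00261) and, named after their values were seen, Casp6 (0.38 ± 0.08, 0.00135) and Casp8 (0.48 ± 0.17, 0.0353, with overlapping libraries).

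Of 7 genes of the death receptor route, which reaches the family through Bid, 4 were higher in Eo+ than in Eo- and none lower, beside 23.0% and 24.6% of all loci. With the replicate block in the fractions alone, Ripk1, counted together with Gm17084, was also called higher (0.19). The TNF receptor gene Tnfrsf1a was at 8.21 ± 2.01 CPM in ESC, 17.4 ± 2.89 in Eo- and 49.0 ± 12.4 in Eo+, a log2 fold change of 1.46 ± 0.20 between the fractions (limma adjusted p = 7.08e-05). The adaptor genes Tradd and Fadd were 0.86 ± 0.16 (0.000573) and 0.52 ± 0.12 (0.00256) higher on the log2 scale, and Cflar, an inhibitor of caspase-8 named after its values were seen, 0.41 ± 0.09 (0.00233). Against ESC, 3 genes of the list were higher and 3 lower in Eo+, and 2 and 4 in Eo-, beside 35.8% and 36.1% of all loci in Eo+ and 30.9% and 31.3% in Eo-. Fas was lower in both, at 1.08 ± 0.439, 0.224 ± 0.0673 and 0.275 ± 0.0541 CPM in ESC, Eo- and Eo+.

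Of the 16 other relatives of Bcl2, 12 passed the filter on low expression, and Bcl2a1a, Bcl2a1c, Bcl2a1d and Bcl2l15 did not. Between the fractions 3 were higher and 6 lower in Eo+, beside 23.0% and 24.6% of all loci, and the lower count was 3 to 7 in other settings, with 3 without Eo+ replicate 6. The 6 include Bcl2a1b, whose locus also holds Mthfs, so its counts cannot be split. Bcl2l14 fell by 1.66 ± 0.24 on the log2 scale (limma adjusted p = 8.77e-05), the effector-like Bok by 1.01 ± 0.18 (0.000469) and the BH3-only gene Hrk by 0.89 ± 0.24 (0.00802). Bad, a BH3-only gene whose protein is held inactive by growth factor signals, rose by 0.44 ± 0.10 (0.00244). Bmf, also BH3-only, was at 8.34 ± 2.47 CPM in ESC, 19.6 ± 1.54 in Eo- and 13.7 ± 4.5 in Eo+. Against ESC, 5 relatives were higher and 4 lower in Eo+, and 5 and 1 in Eo-. Over all loci the shares were 35.8% and 36.1% in Eo+ and 30.9% and 31.3% in Eo-. Across settings the counts were 4 to 6 higher and 2 to 5 lower in Eo+, and 4 to 5 and 0 to 2 in Eo-.

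Genes that act on Mcl1 protein or on transcription of the family moved in both directions. Among 7 genes of Mcl1 turnover, Usp9x, a deubiquitinase that stabilises the protein, was at 114 ± 13.8 CPM in ESC, 66.8 ± 10.3 in Eo- and 68.1 ± 6.62 in Eo+, and Fbxw7, a ligase component that marks it for degradation, at 45.0 ± 6.59, 34.0 ± 1.24 and 31.3 ± 1.81 CPM. Gsk3b, a kinase that phosphorylates Mcl1 ahead of its degradation, was the only one of the 7 called between the fractions (log2 fold change 0.27 ± 0.08, limma adjusted p = 0.0177), beside 23.0% of all loci higher and 24.6% lower. With the replicate block Trim17, counted together with Hist3h2a, was called too (0.42), and without Eo- replicate 2 none of the 7 was. Against ESC, 3 of the 7 were higher and 2 lower in Eo+, and 2 and 2 in Eo- (all loci, 35.8% and 36.1% in Eo+ and 30.9% and 31.3% in Eo-). Across settings the counts were 2 to 3 higher and 2 to 3 lower in Eo+, and 0 to 3 and 2 to 3 in Eo-. Among 6 transcription regulators, Stat3, the effector of LIF, was at 128 ± 15.9, 26.7 ± 6.52 and 34.1 ± 8.1 CPM in ESC, Eo- and Eo+, and Ddit3, a stress-response factor, at 14.6 ± 1.89, 4.26 ± 0.382 and 4.48 ± 0.555 CPM. The medium differed between ESC and day 3 in LIF, which cannot be told apart from differentiation. In this list 1 gene was higher in each fraction than in ESC, with 4 lower in Eo+ and 3 in Eo-, to be read against the same shares of all loci. Between the fractions Foxo1 fell by 1.06 ± 0.13 on the log2 scale (limma adjusted p = 2.76e-05) and Foxo3 rose by 0.39 ± 0.12 (0.0144). With the replicate block Stat3 was also called (0.35). E2f1 (-0.49) and Atf4 (0.27), called with and without the block, were counted together with the neighbouring genes Necab3 and Mief1.

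**Figure D4:**
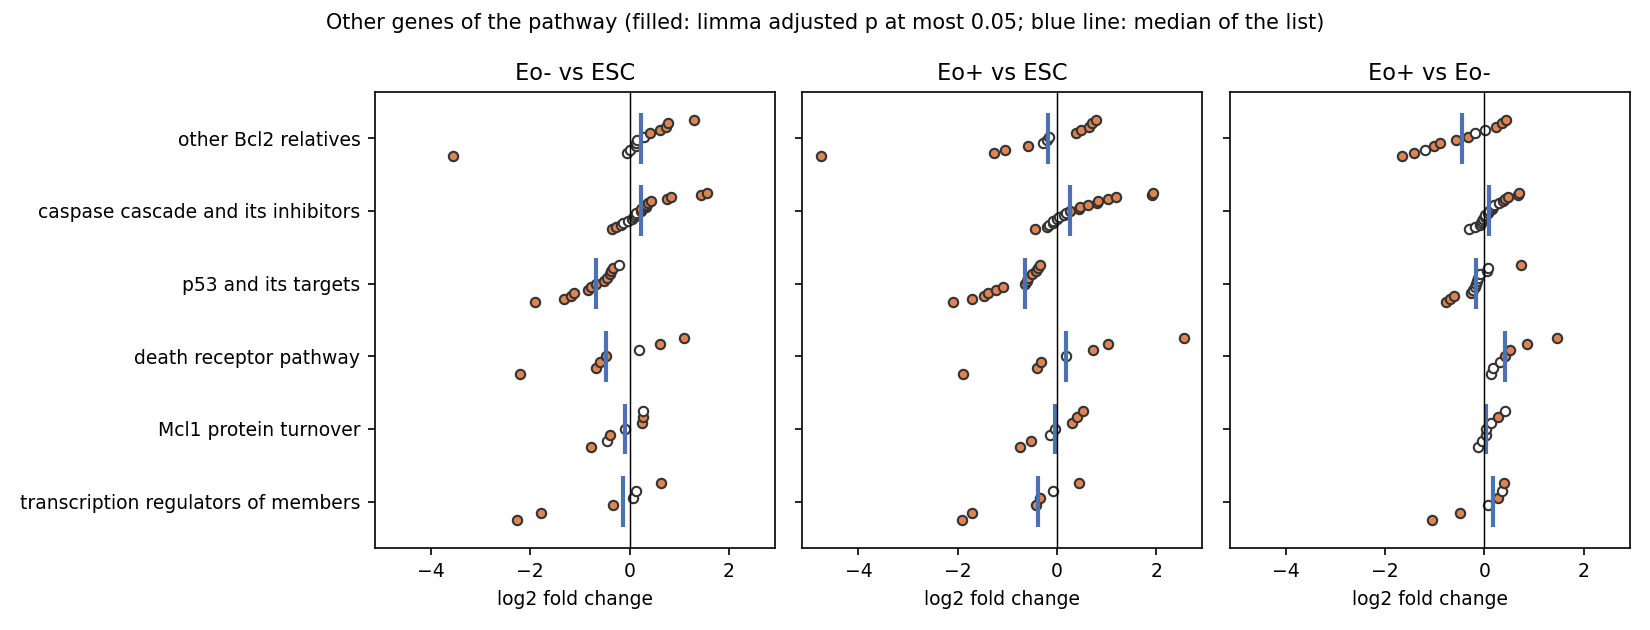
Log2 fold change (x axis) of the tested genes of the 6 other lists in the 3 comparisons (1 point per gene; filled, limma adjusted p at most 0.05; blue line, median of the list). The 13 genes of the p53 list lie left of 0 in both ESC comparisons, with medians of -0.68 and -0.65, and the leftmost point of the top list is Bcl2l10, at 0.199 ± 0.0723 CPM in ESC.

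Across the 12 libraries, the single-gene protein-coding loci whose log2 CPM was most like that of Mcl1 were Cdc5l (Pearson r = 0.997), Dnajb6 (0.994) and Mtf2 (0.993) among 12840 loci. The 12 points fall into the 3 groups, and r is given as a description. Cdc5l, a spliceosome component, was at 237 ± 10.5 CPM in ESC, 123 ± 2.41 in Eo- and 125 ± 3.02 in Eo+. Dnajb6, a co-chaperone, was at 188 ± 5.09, 103 ± 2.52 and 98.5 ± 8.06 CPM, and Mtf2, a Polycomb-associated protein, at 303 ± 22.1, 135 ± 7.4 and 130 ± 4.59 CPM.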

How the data were processed

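The authors mapped paired, stranded 100-nt reads to mm10 with STAR, assembled and merged transcripts on the Ensembl annotation with Cufflinks (2.2.1 in the submitters' processing notes) and ran HTSeq 0.6.1 in strand-aware union mode to obtain a count per locus. The deposited raw counts, without scaling, are the values used here, and exon positions were taken from the deposited annotation. The counts exceed the read number that the labels give per sample, so what 1 count stands for is open, and the counting floor covers counting error only. Locus counts were 648413022 to 837308168 per library. HTSeq set aside 22.4% to 26.2% of its total as not unique, 2.65% to 3.6% as outside loci and 0.015% to 0.0193% as ambiguous. The deposited normalized table was not used here.

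Loci were classed with GENCODE M21, and 17922 protein-coding, annotated lncRNA and multi-exon non-annotated loci passed the FPKM filter; 1254 of them join several annotated genes. All exons of a locus gave the length for FPKM. Limma 3.58.1 (voom, TMM from edgeR 4.0.16, R 4.3.3) was fitted to 12 libraries with 1 mean per group, and moderated two-sided tests (13.5 degrees of freedom) were adjusted by Benjamini-Hochberg over all loci. Errors of levels are SD over 4 libraries and those of log2 fold changes are SE. The test was checked on simulated data, where nearly all large changes were recovered and many small ones were missed. EdgeR's quasi-likelihood test and DESeq2 1.42.0, other scalings, filters and sample sets and a replicate block were alternatives.

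The members and lists were chosen with earlier results of these data known. Named were all members and, per list and comparison, at most the 3 called genes with the largest change in each direction, provided that the higher group averaged at least 1 CPM and its 4 libraries stood clear of the other group. Some genes were named outside this rule, among them Bcl2l10, Bcl2a1b, Bcl2l2, Trim17, Casp2 and Aen. Deviations of same-numbered Eo- and Eo+ libraries from their group means correlated in 4 of 4 pairs (r = 0.316 to 0.634). The numbers therefore paired the fractions. For ESC the picture was mixed, with r of -0.122 to 0.352 with same-numbered Eo- libraries and -0.090 to 0.128 with Eo+. ESC pairs of different numbers had -0.209 to 0.211 with Eo- and -0.092 to 0.096 with Eo+.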

Additional observations from a re-analysis of the deposited data

Results flagged for a closer look

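In 4 of the 30 sets of 4 libraries (10 members in 3 groups), 1 library lay far from the rest by Dixon's 95% criterion for the gap between neighbours; chance flags about 1 in 20 such sets. Bcl2 was at 2.3 CPM in ESC replicate 5, against 1.53 to 1.62 CPM in the other ESC libraries. Pmaip1 was at 60.3 CPM in Eo- replicate 1, against 74.2 to 76.9 CPM, and this library also had the 89.6 CPM of erythroid globins. Bid was at 49.2 CPM in ESC replicate 6, against 65.2 to 68.5 CPM, and at 36.4 CPM in Eo+ replicate 5, against 30.1 to 30.5 CPM.

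The change of Bcl2l11 from ESC differed between the fractions, higher in Eo- and lower in Eo+, by -0.67 on the log2 scale. The test of this difference is that of Eo+ against Eo-, since both share the ESC libraries (limma adjusted p = 6.68e-05).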

How the results depend on the processing

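Of the log2 fold changes of the 10 members in Eo+ against Eo-, 210 of 210 alternative values kept their side of the threshold, and no called value was reversed. The values against ESC were part of how the family was chosen, so no count of those that held is given. Of uncalled values near 0, Mcl1 in Eo+ against Eo- became -0.01 with the filter of at least 1 CPM in 4 libraries (main value 0.02) and Bcl2l1 in Eo- against ESC 0.01 with library totals (-0.07). Calls that changed were Bcl2l11 in Eo+ against ESC, no longer called with library totals (-0.23), with no filter on low values (-0.20) or without ESC replicate 5, Eo+ replicate 1 or Eo+ replicate 6 (-0.25 to -0.20); Bid in Eo- against ESC, called with DESeq2 (-0.23) and without ESC replicate 6 (-0.28); and Bik in Eo- against ESC, not called without Eo- replicate 2 (0.47). The cause was not tested. Between the fractions, 8 members were called in every setting. The replicate block gave 13402 loci called in Eo+ against ESC, 11839 in Eo- against ESC and 9555 in Eo+ against Eo-. Without it the counts were 12888, 11154 and 8543. Of the members, 8 were called between the fractions with the block. The block in the 8 libraries of the paired fractions alone, added after seeing the data, gave 10392 loci and 8 members, and changed no call of a member between the fractions. Pmaip1 was the most variable of the changes between the fractions (0.55 to 0.95). Under other scalings the median log2 fold change over all loci lay between -0.04 and 0.09. With the exon length of annotated transcripts, shares moved by more than 1 SD between libraries in at least 1 group for Bax, Bak1, Bbc3 and Bik. What depth limits is small here: the lowest member, Bcl2, lay at 1.53 CPM or more, far above the 0.00467 CPM of 3 counts.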

Other observations

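Within the Eo+ fraction, genes of the p53 list ran both against and with Pmaip1, an observation made after the values were seen and not tested. Replicates 2 and 6 had 181 and 144 CPM of Pmaip1, and 29.0 and 28.0 CPM of Cdkn1a and 55.2 and 50.8 CPM of Trp53inp1, a stress-induced p53 target. Replicates 1 and 5 had 98.3 and 79.2 CPM of Pmaip1, 43.4 and 41.3 CPM of Cdkn1a and 97.0 and 96.2 CPM of Trp53inp1. Of the 13 genes of the list, 7 were lower in both replicates 2 and 6 than in replicates 1 and 5, 2 were higher and 4 were mixed. The 2 were Trp53, at 421, 466, 403 and 452 CPM in replicates 1, 2, 5 and 6, and Aen, whose locus also holds Isg20, at 67.4, 78.0, 58.9 and 78.3 CPM.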
